A study of Drosophila melanogaster with 9 samples.

Results

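The 7 genes osk, bcd, grk, gcl, pgc, hb and fs(1)K10 encode maternal mRNAs that pattern the axes and the germline of the Drosophila egg. They were chosen by name as mRNAs that are localized or translationally controlled in the oocyte, and all 7 were found among the 17023 genes in the count lists. The measurements came from an RNA immunoprecipitation of the La-related protein Larp, an RNA-binding protein, in ovaries of the genotype larp::GFP::FLAG dissected 1-3 days post-eclosion. The 3 fractions had 3 libraries each and shared genotype, tissue and age: RNA recovered with an anti-FLAG antibody (anti-FLAG IP), RNA recovered with mouse IgG (IgG control), and 10% of the lysate kept as input. Every fraction carried the tagged protein, no fraction came from untagged flies, and the labels do not say which promoter or cells express the tag or whether animals were pooled. The ovaries were whole, so germline and somatic cells were measured together, and fewer cells of a type cannot be told apart from less RNA per cell.

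The Drosophila oocyte is supplied with mRNA by its sister nurse cells, and motor proteins, adaptors and anchors place some of these mRNAs in particular regions of the oocyte. Repressor proteins hold many of them silent during transport, so that their proteins are made only at the right place and stage. The anterior determinant, the posterior pole plasm that forms the germ cells, and the dorsal signal of the egg all depend on mRNAs of this kind. The human relative LARP1 binds the cap and the start of terminal oligopyrimidine mRNAs, a class that includes the ribosomal protein mRNAs.

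Libraries held 11254129 to 17150422 counts assigned to genes. Ribosomal protein genes took 29.5% to 49.7% of the counts in anti-FLAG IP libraries, 7.83% to 9.003% in the IgG control and 8.31% to 10.6% in input, so the other genes, the 7 maternal mRNAs among them, divided a smaller remainder in the anti-FLAG IP. Levels below are therefore normalised counts, which are CPM values, in which libraries are brought to the same total, with TMM factors applied. TMM is a method that equalises the bulk of genes between libraries. Against input, larp itself had a log2 fold change of 1.05 ± 0.56 (SE) in anti-FLAG IP with an edgeR adjusted p of 0.485. It was called only in fits with the replicate number as a block (1.08, edgeR adjusted p = 0.000385), without input replicate 3 (1.67, adjusted p = 0.0494) or without both libraries numbered 3 (1.11, adjusted p = 0.00276). Replicates 3 of anti-FLAG IP and IgG control correlated best with each other, at 0.950 across genes, so the results that follow were also computed without the libraries numbered 3. Follicle cell and germline markers were read in every fraction. The summed level of 11 follicle cell markers was 16899 to 29666 normalised counts in anti-FLAG IP, 21944 to 26508 in the IgG control and 16472 to 24776 in input. The summed level of the 5 germline markers found in the lists, of 6 listed, was 1807 to 2011, 1755 to 1845 and 1412 to 1609 in the same order of fractions.

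None of the 7 maternal mRNAs was called higher or lower in anti-FLAG IP against either control, where a call needed an adjusted p under 0.05 in edgeR's quasi-likelihood test and a fold change of at least 2. Against input the test called 2.06% of all genes, and against IgG control 1.65%. At an unadjusted p under 0.05 there were 2 maternal mRNAs against input, bcd and hb, beside 14.4% of all genes. Against IgG control there were 0, beside 7.56% of all genes, and DESeq2 called none of the 7 in either comparison. The median log2 fold change of the 7 was -0.08 against input, beside 0.01 for all genes tested. Against IgG control it was -0.08, beside 0.00 for all genes. These comparisons share the anti-FLAG IP libraries, and the input libraries also enter the comparison of IgG control with input. The 7 mRNAs fell into 2 that were above input in both precipitated fractions, bcd and hb, and 5 whose fractions overlapped with input. Of all genes tested, 9.32% were above input without overlap in anti-FLAG IP and 5.35% in the IgG control. The share of all genes above input in both at once was not counted, and both comparisons use the same input libraries. The plot of normalised counts by fraction shows each library.

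**Figure D1:**
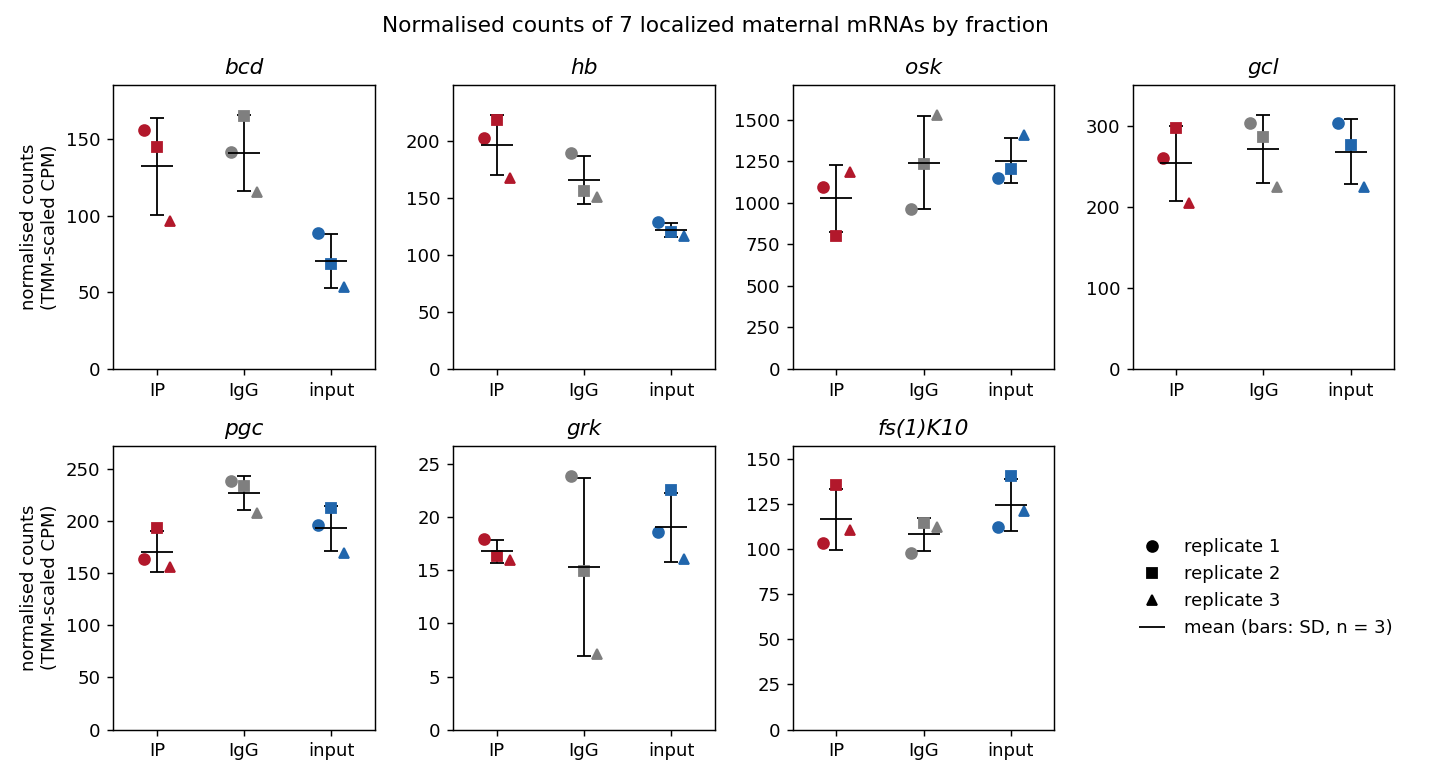
Normalised counts (TMM-scaled CPM, linear axis from 0, a separate scale for each gene) of the 7 maternal mRNAs in the 3 anti-FLAG IP, 3 IgG control and 3 input libraries, where marker shapes are replicate numbers, horizontal lines are means and bars are SD. For bcd and hb every anti-FLAG IP and IgG control library lies above every input library, and for pgc every anti-FLAG IP library lies below every IgG control library.

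The mRNAs bcd and hb stood highest against input. bcd encodes a homeodomain protein that acts as the anterior determinant, and its mRNA is held at the anterior of the oocyte until the egg is activated. bcd (FBgn0000166) lies on chromosome arm 3R at 6755842 to 6759466, minus strand (BDGP6.54), with 2536 exon bases, none of them shared with another gene. It had 156, 145 and 96.4 normalised counts in anti-FLAG IP replicates 1, 2 and 3, 142, 165 and 115.3 in the IgG control, and 88.9, 68.4 and 53.6 in input. All 6 precipitated libraries were above all 3 input libraries, and the anti-FLAG IP and IgG control libraries overlapped. The means were 132 ± 31.6 in anti-FLAG IP, 141 ± 24.9 in the IgG control libraries and 70.3 ± 17.7 in input libraries (SD, n = 3 each).

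Against input, bcd had a log2 fold change of 0.93 ± 0.25 in anti-FLAG IP (SE, 95% interval 0.40 to 1.46) with an edgeR adjusted p of 0.0748, at the percentile 93.2 of the genes tested. All 3 same-numbered pairs had the same direction, with log2 ratios of anti-FLAG IP to input of 0.81, 1.08 and 0.85. The edgeR adjusted p was 0.00402 with the replicate block and the DESeq2 adjusted p was 0.0267, but both left the fold change under 2. Leaving out anti-FLAG IP replicate 3 gave a log2 fold change of 1.10 with an edgeR adjusted p of 0.00406, which was called, while 2.69% of all genes were called higher. Leaving out any of the other 5 libraries gave 0.77 to 1.13 with edgeR adjusted p of 0.0822 to 0.279, none of them called. Without both libraries numbered 3 the value was 0.96 (edgeR adjusted p = 0.0146).

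The IgG control was as far above input for bcd as the anti-FLAG IP was. Its log2 fold change was 1.01 ± 0.23 (SE, 95% interval 0.50 to 1.52) with an edgeR adjusted p of 0.595, and the pairs gave 0.67, 1.27 and 1.10. No gene was called in that comparison by edgeR (0%), 460 of 7594 genes had an unadjusted p under 0.05, and DESeq2 called 22 higher and 9 lower. The replicate block called bcd higher in the IgG control, at 1.03 with an edgeR adjusted p of 0.0275, as 1 of 6 genes (0.0790%). DESeq2 also called it, at 1.03 with an adjusted p of 0.0330, beside 0.232% of genes called higher. Directly between the precipitates, bcd had a log2 fold change of -0.08 ± 0.25 in anti-FLAG IP against IgG control (SE, 95% interval -0.63 to 0.46; edgeR adjusted p = 0.989).

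hb encodes a zinc-finger transcription factor, and its maternal mRNA differs from the other 6 in that it is spread through the egg and is silenced at the posterior by Nanos and Pumilio. hb (FBgn0001180) lies on 3R at 8690980 to 8697822, minus strand, with 3835 exon bases, none shared. It had 203, 219 and 168 normalised counts in anti-FLAG IP, 190, 156 and 151 in the IgG control, and 129, 120 and 117 in input. As for bcd, the 6 precipitated libraries were all above the 3 input libraries, and both kinds of precipitate overlapped. The log2 fold change against input was 0.70 ± 0.19 in anti-FLAG IP (SE, 95% interval 0.31 to 1.10; edgeR adjusted p = 0.0705) and 0.46 ± 0.17 in the IgG control (SE, 95% interval 0.09 to 0.82; edgeR adjusted p = 0.782). Between anti-FLAG IP and IgG control it was 0.25 ± 0.22 (SE, 95% interval -0.22 to 0.72; edgeR adjusted p = 0.933). With the replicate block the anti-FLAG IP value against input was 0.70 (edgeR adjusted p = 0.0215), and with DESeq2 it was 0.70 (adjusted p = 0.0249). Without both libraries numbered 3 it was 0.78 (edgeR adjusted p = 0.0179). Each of these was under 2-fold and not called. Leaving out 1 library at a time gave 0.60 to 0.79 with edgeR adjusted p of 0.00744 to 0.297, also not called.

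Groups that did not overlap were not rare among all genes. Against input, 2 of the 7 maternal mRNAs had no overlap in anti-FLAG IP, both higher, beside 20.3% of all genes in either direction and 9.32% that were higher. For IgG control against input the count was again 2, both higher, beside 13.8% in either direction and 5.35% higher. Cell type markers were read beside bcd and hb. The summed germline levels, given above, were also higher in all 6 precipitated libraries than in the 3 input libraries. The markers did not all have that direction in anti-FLAG IP against input, where ovo (0.61), orb (0.41) and otu (0.27) had log2 fold changes above 0 and bam (-1.57 ± 0.40 SE, edgeR adjusted p = 0.0639) and Rbp9 (-0.79) below it. edgeR called none of the 5, and 2 had an unadjusted p under 0.05, beside 14.4% of all genes. DESeq2 and the replicate block each called 1 of the 5. Only bam, which was lower, was past 2-fold in the edgeR fit. DESeq2 called 1.82% of all genes higher and 0.526% lower, and the block 2.18% and 1.00%. The 5 muscle sheath markers found, of 6 listed, summed to 88.2 to 358 normalised counts in anti-FLAG IP, 168 to 567 in the IgG control and 81.7 to 186 in input. The 3 fat body markers summed to 21.7 to 173, 46.4 to 654 and 15.3 to 36.7 in the same order, with 1 of the 3, Fbp1, at 0 in all libraries. In IgG control against input, all 5 muscle sheath markers had log2 fold changes above 0 (median 1.86). The 2 fat body markers tested did too (median 2.87). edgeR called none of these, and 4 and 2 had an unadjusted p under 0.05, beside 6.06% of all genes. DESeq2 called 2 muscle sheath markers, beside 0.232% of all genes higher and 0.0951% lower. In anti-FLAG IP against input, 4 muscle sheath markers were above 0 and 1 below (median 0.84), and 2 fat body markers were above 0 (median 1.71). edgeR called none of them there. DESeq2 and the replicate block each called 1 marker of each of these 2 lists, beside the shares of all genes given above. Between anti-FLAG IP and IgG control all of these markers were below 0. The part of these cell types in the values of bcd and hb was not tested.

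**Figure D2:**
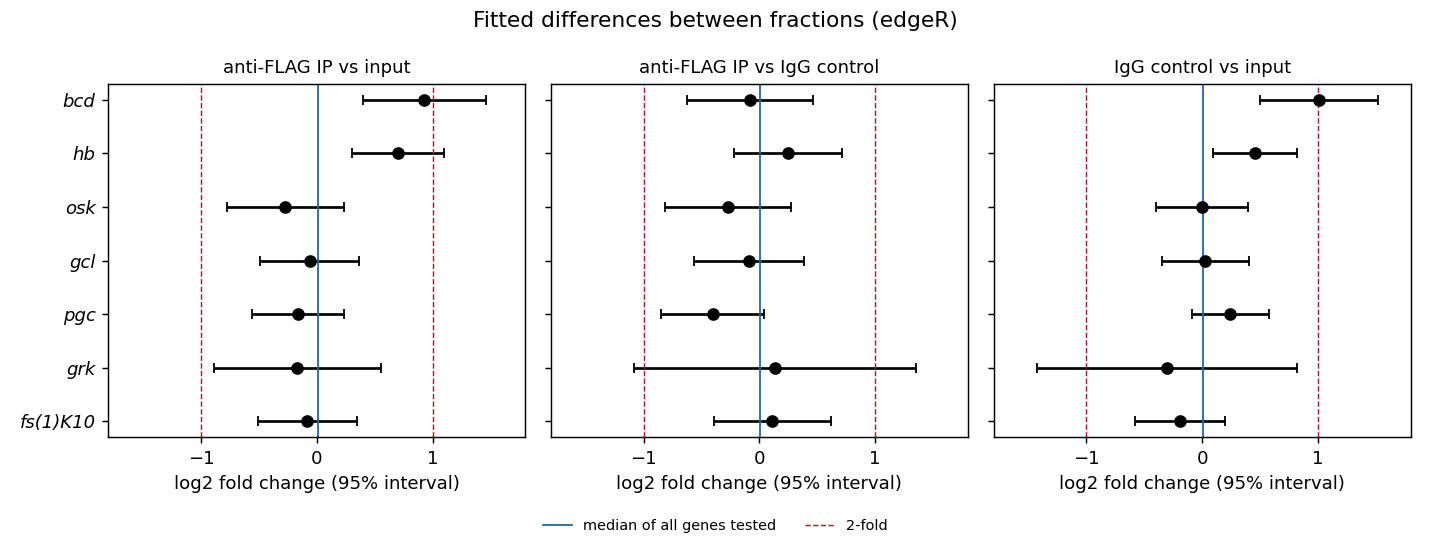
Log2 fold changes of the 7 maternal mRNAs fitted by edgeR (points) with 95% intervals (bars) for anti-FLAG IP against input, anti-FLAG IP against IgG control and IgG control against input, with the median of all genes tested as a solid line and 2-fold as dashed lines. The intervals of bcd and hb lie above 0 against input in both precipitates (bcd 0.40 to 1.46 in anti-FLAG IP and 0.50 to 1.52 in the IgG control), and all 7 intervals include 0 between anti-FLAG IP and IgG control.

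The posterior mRNAs osk, gcl and pgc act in the pole plasm. osk encodes the protein that assembles the pole plasm, and its mRNA travels to the posterior of the oocyte while repressed by Bruno and Cup. osk (FBgn0003015) lies on 3R at 8935126 to 8938395, plus strand, with 2869 exon bases. It had 1092, 802 and 1187 normalised counts in anti-FLAG IP, 965, 1233 and 1526 in the IgG control, and 1151, 1203 and 1407 in input. The fractions overlapped, and the lowest library was an anti-FLAG IP one. The log2 fold change in anti-FLAG IP was -0.27 ± 0.24 against input (SE, 95% interval -0.78 to 0.23; edgeR adjusted p = 0.678) and -0.27 ± 0.25 against IgG control (SE, 95% interval -0.81 to 0.28; edgeR adjusted p = 0.948). Same-strand exons of lncRNA:osk cover 78.5% of the osk exon bases, and opposite-strand exons of asRNA:CR44020 cover 5.65%. lncRNA:osk is not used here, and asRNA:CR44020 had at most 35 counts in a library, against 4955 to 25786 for osk.

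gcl is needed for the formation of the pole cells, the precursors of the germline, and its mRNA gathers in the pole plasm. gcl (FBgn0005695; 2R, 8724258 to 8728999, plus strand, 2509 exon bases) had 260, 298 and 205 normalised counts in anti-FLAG IP, 304, 287 and 224 in the IgG control, and 304, 277 and 225 in input. Replicate 3 was the lowest library in each of the 3 fractions, and the fractions overlapped. Its log2 fold change was -0.06 ± 0.20 against input (SE, 95% interval -0.49 to 0.36; edgeR adjusted p = 0.936) and -0.09 ± 0.22 against IgG control (SE, 95% interval -0.56 to 0.38; edgeR adjusted p = 0.989). Both intervals lie inside a 2-fold change in either direction.

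pgc encodes a short protein, with an annotated coding length of 213 bases, that keeps transcription off in the pole cells. pgc (FBgn0016053; 2R, 22330200 to 22332813, plus strand, 1212 exon bases) had 163, 193 and 155 normalised counts in anti-FLAG IP, 238, 234 and 208 in the IgG control, and 196, 213 and 170 in input. All 3 anti-FLAG IP libraries were below all 3 IgG control libraries, and each overlapped with input. Against IgG control the log2 fold change was -0.40 ± 0.21 (SE, 95% interval -0.85 to 0.04; edgeR adjusted p = 0.745), and the same-numbered pairs gave -0.54, -0.28 and -0.42. pgc was the only maternal mRNA without overlap in this comparison, beside 12.7% of all genes in either direction and 5.72% that were lower. Without both libraries numbered 3 the value was -0.40 (edgeR adjusted p = 0.570). Against input it was -0.16 ± 0.18 (SE, 95% interval -0.56 to 0.23; edgeR adjusted p = 0.774), and IgG control against input gave 0.24 ± 0.15 (SE, 95% interval -0.09 to 0.58; edgeR adjusted p = 0.889). Exons of T3dh on the opposite strand cover 46.9% of the pgc exon bases. T3dh had at most 51 counts in a library and pgc had 1191 to 4889. The strand setting of the counting is not given, so these counts do not show how reads in the shared exons were assigned.

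The dorsal signal is carried by grk, which encodes a TGF-alpha-like ligand of the epidermal growth factor receptor and whose mRNA gathers beside the oocyte nucleus. grk (FBgn0001137; 2L, 8431086 to 8433598, minus strand, 1718 exon bases) was the lowest of the 7, with 97 to 400 counts in a library. It had 17.98, 16.3 and 16.0 normalised counts in anti-FLAG IP, 23.9, 14.97 and 7.13 in the IgG control, and 18.6, 22.5 and 16.1 in input. The anti-FLAG IP libraries were close together, while the IgG control libraries held both the highest and the lowest value of all 9. The log2 fold change was -0.17 ± 0.34 against input (SE, 95% interval -0.89 to 0.55; edgeR adjusted p = 0.891) and 0.13 ± 0.57 against IgG control (SE, 95% interval -1.09 to 1.35; edgeR adjusted p = 0.996). The second interval takes in a 2-fold change either way, so a difference of that size was not detectable for grk with these IgG control libraries. Exons of Akap200 on the opposite strand cover 12.3% of the grk exon bases, and Akap200 had 3200 to 12954 counts in a library. The strand setting of the counting is not given in the sources used here.

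fs(1)K10 acts with grk, since its product is needed to restrict grk mRNA to the dorsal side, and its own mRNA is carried from the nurse cells to the oocyte anterior. fs(1)K10 (FBgn0000810; X, 2242138 to 2246041, plus strand, 3052 exon bases, none shared) had 104, 135 and 110.3 normalised counts in anti-FLAG IP, 97.8, 114 and 112 in the IgG control, and 112, 140.3 and 121 in input. The libraries of all 3 fractions overlapped. Its log2 fold change was -0.08 ± 0.20 against input (SE, 95% interval -0.50 to 0.34; edgeR adjusted p = 0.916) and 0.11 ± 0.24 against IgG control (SE, 95% interval -0.39 to 0.62; edgeR adjusted p = 0.987). For IgG control against input, the mRNAs osk, gcl, grk and fs(1)K10 had fitted values with intervals that included 0. Their log2 fold changes were -0.00 ± 0.18 for osk, 0.03 ± 0.17 for gcl, -0.30 ± 0.51 for grk and -0.19 ± 0.18 for fs(1)K10 (SE), with edgeR adjusted p of at least 0.957.

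Between genes, levels were compared per kb of exon, since a longer mRNA gives more reads. All exon bases of a gene were its length, although only 456 of 2869 for osk and 643 of 1212 for pgc are not shared with another gene. The effect of shared exons on the order was not tested. osk was the highest in every library and grk the lowest, as the plot of levels per kb shows. In anti-FLAG IP the mean normalised counts per kb were 358 for osk, 141 for pgc, 101 for gcl, 52.2 for bcd, 51.2 for hb, 38.1 for fs(1)K10 and 9.76 for grk. Neighbours in that order overlapped between libraries for bcd with hb and for hb with fs(1)K10. In IgG control the order was the same, with 433, 187, 108, 55.5, 43.2, 35.4 and 8.92, and neighbours overlapped only for bcd with hb. In input bcd and hb stood below fs(1)K10. The input means were 437 for osk, 159 for pgc, 107 for gcl, 40.7 for fs(1)K10, 31.8 for hb, 27.7 for bcd and 11.1 for grk, and neighbours overlapped only for hb with bcd.

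**Figure D3:**
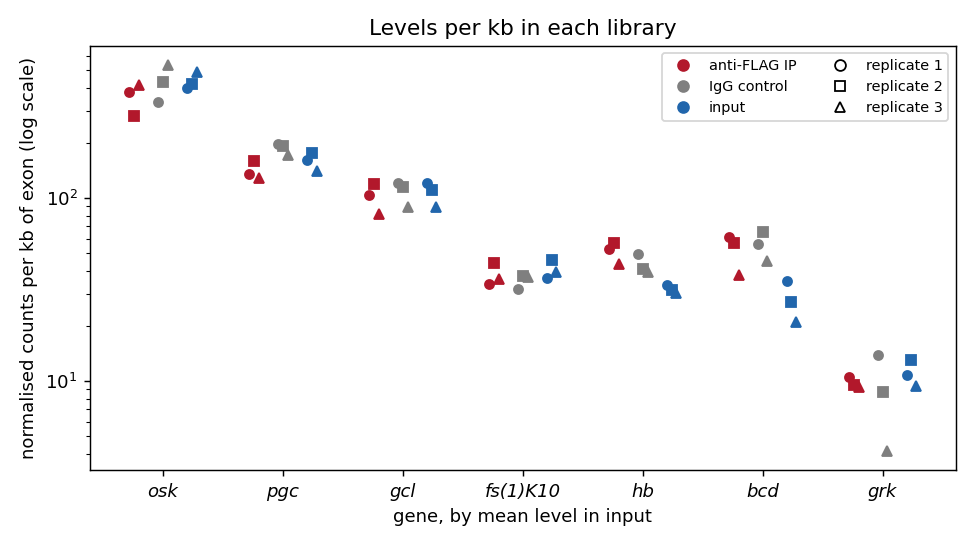
Normalised counts per kb of exon (log axis) of the 7 maternal mRNAs in each library, ordered from left by their mean in input, with anti-FLAG IP, IgG control and input side by side for each gene and marker shapes for replicates 1 to 3. osk is highest and grk lowest throughout, and bcd and hb are the genes at which both precipitates stand above input.

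Ratios of 2 mRNAs within a library do not depend on how libraries are scaled. The ratio of bcd to gcl counts was 0.599, 0.487 and 0.470 in anti-FLAG IP, 0.467, 0.575 and 0.514 in the IgG control, and 0.292, 0.247 and 0.238 in input. The ratio of hb to gcl was 0.779, 0.735 and 0.817 in anti-FLAG IP, 0.625, 0.545 and 0.674 in the IgG control, and 0.423, 0.435 and 0.519 in input. Over gcl, both ratios were higher in every precipitated library than in every input library, and for hb the anti-FLAG IP libraries were also above all IgG control libraries. Over osk, the ratio of bcd was 0.143, 0.181 and 0.0812 in anti-FLAG IP, 0.147, 0.134 and 0.0756 in the IgG control, and 0.0772, 0.0568 and 0.0381 in input. The ratio of hb to osk was 0.186, 0.273 and 0.141 in anti-FLAG IP, 0.197, 0.127 and 0.0991 in the IgG control, and 0.112, 0.1000 and 0.0830 in input. With osk as the divisor the anti-FLAG IP libraries were still above all input libraries, but IgG control replicate 3 overlapped with input for both mRNAs, and hb overlapped between anti-FLAG IP and IgG control. gcl was taken as the divisor after its values were seen, because its fitted value against input was the closest to 0. The ratios over gcl are therefore no support separate from the normalised counts, in which hb overlapped between anti-FLAG IP and IgG control. How many of all genes separate the fractions when divided by gcl was not counted. The ratio of pgc to gcl was 0.626, 0.648 and 0.757 in anti-FLAG IP, 0.783, 0.815 and 0.925 in the IgG control, and 0.645, 0.769 and 0.753 in input. Over gcl, pgc was lower in every anti-FLAG IP library than in every IgG control library. Over osk the 2 fractions overlapped for pgc. Anti-FLAG IP replicate 2 had 1191 pgc and 4955 osk counts. IgG control replicate 3 had 2823 and 20752, which is a lower ratio.

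As a share of all counts, the 7 mRNAs took 0.133%, 0.0983% and 0.154% of the anti-FLAG IP libraries. They took 0.253%, 0.269% and 0.283% of the IgG control libraries and 0.258%, 0.251% and 0.244% of the input libraries. The anti-FLAG IP libraries were thus below all others on this scale, where ribosomal protein counts are part of the total. With ribosomal protein counts left out of the total, the means were 0.215% ± 0.0176 in anti-FLAG IP, 0.293% ± 0.0182 in the IgG control libraries and 0.276% ± 0.00414 in input libraries (SD, n = 3 each). osk alone made up 53.4% ± 8.52 of the counts of the 7 mRNAs in anti-FLAG IP, 56.8% ± 7.96 in the IgG control libraries and 61.1% ± 4.95 in input libraries (SD, n = 3 each). bcd made up 6.93% ± 1.70, 6.55% ± 1.41 and 3.45% ± 0.955 in the same order, and hb 10.3% ± 1.73, 7.74% ± 1.71 and 5.95% ± 0.453.

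The scaling moved all 7 values against input and changed the sign of bcd and hb, while the other 5 were below 0 under all 3 scalings. With library totals alone, the median of all genes tested was -0.87 on the log2 scale in anti-FLAG IP against input, and 28.9% of genes were called lower. On that scale osk (-1.13, edgeR adjusted p = 0.00669), pgc (-1.08, edgeR adjusted p = 0.00351) and grk (-1.07, edgeR adjusted p = 0.0374) were called lower. bcd was then at -0.01 and hb at -0.22, with edgeR adjusted p of 0.976 and 0.447. Relative to the median of all genes under that scaling, bcd was 0.86 higher and hb 0.66 higher, and osk was 0.25 below it. With totals outside the ribosomal protein genes the median was -0.27, bcd was at 0.63 and hb at 0.42, and no maternal mRNA was called. Against IgG control with library totals alone the median was -0.89, and osk, bcd, gcl and pgc were called lower beside 23.0% of all genes.

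**Figure D4:**
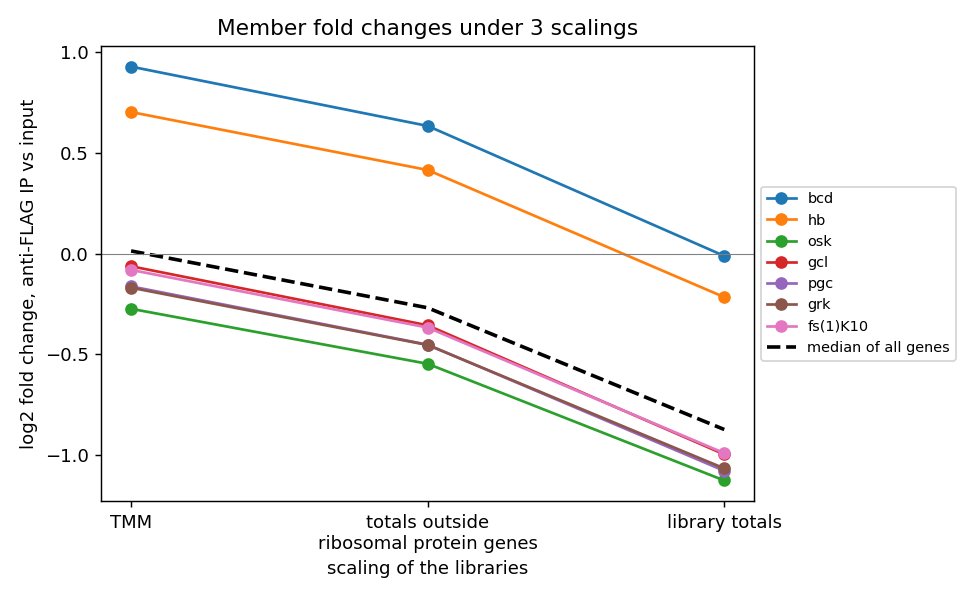
Log2 fold changes of the 7 maternal mRNAs in anti-FLAG IP against input under 3 scalings of the libraries (TMM, totals outside ribosomal protein genes, library totals), with the median of all genes tested as a dashed line. The 7 lines and the median fall together toward library totals, where the median is -0.87, while bcd and hb stay above the median and the other 5 stay below it under all 3 scalings.

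Other genes of the same processes were likewise not called. The 5 lists held 57 genes that could be tested of 63 listed. edgeR called 0 of them in either direction against input, against IgG control, or for IgG control against input. Of all genes it called 2.06%, 1.65% and 0% in those comparisons. At an unadjusted p under 0.05 there were 9, 6 and 2 of the 57, beside 14.4%, 7.56% and 6.06% of all genes. DESeq2 called 0 of the 57 in each comparison. The median log2 fold changes of the 57 genes were 0.03, 0.07 and -0.07, beside 0.01, 0.00 and 0.01 for all genes tested.

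Among 6 other localized maternal mRNAs the values against input ran from -0.71 ± 0.19 (SE, edgeR adjusted p = 0.0788) for hts, an adducin of the fusome and ring canals, to 0.56 ± 0.30 (adjusted p = 0.440) for Hsp83, a chaperone. The 19 genes for mRNA localization and translational control ran from -0.56 for tsu, a core protein of the exon junction complex, to 0.35 for pum, the Pumilio repressor that acts on hb mRNA. cup, which encodes a repressor of osk translation, was listed at 0 in all 9 libraries, and BicC had 0 counts in all but 1 library, where it had 10. All cup exon bases and 94.8% of those of BicC are shared with another gene on the same strand. The 7 pole plasm genes ran from -0.60 for capu, an actin nucleator needed for osk localization, to 0.50 for tud, a scaffold of the polar granules. The 18 dorsoventral genes ran from -0.84 ± 0.28 (SE, edgeR adjusted p = 0.159) for cni, a cargo receptor for the Gurken ligand, to 0.91 ± 0.39 (adjusted p = 0.304) for Egfr, the Gurken receptor. The IgG control was also below input for cni, at -0.97 ± 0.44 (SE, edgeR adjusted p = 0.804). Between anti-FLAG IP and IgG control cni was at 0.12 ± 0.50 (SE, edgeR adjusted p = 0.994). In anti-FLAG IP against input, cni was called lower under 4 of 14 alternatives. Among these were totals outside the ribosomal protein genes (-1.13, edgeR adjusted p = 0.0414) and the fit without anti-FLAG IP replicate 3 (-1.06, edgeR adjusted p = 0.0400). The fit without both libraries numbered 3 was another (-1.18, edgeR adjusted p = 0.0337). These 3 settings called 1.93%, 1.83% and 0.976% of all genes lower, in that order. Last, the 7 terminal system genes ran from -1.15 ± 0.77 for trk, a ligand precursor of the Torso receptor, to 0.30 ± 0.28 for Dsor1, a MAP kinase kinase.

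For each maternal mRNA, the genes whose levels ran most alike over the 9 libraries were found by Pearson correlation of log2 normalised counts among 6678 genes. The 9 points share fractions, replicate numbers and scaling factors, and the values are given as a description. bcd ran most like Dtd (0.929), phol (0.922) and CG2224 (0.912). hb ran most like Muc12Ea (0.957), RasGAP1 (0.955) and CG1636 (0.953). For osk the genes were CG42709 (0.946), Ice2 (0.932) and CG9992 (0.931). For gcl they were Pde9 (0.974), IntS12 (0.961) and CG14561 (0.958), and for pgc CG32452 (0.973), CG9331 (0.941) and CAH7 (0.923). For grk they were mRpS31 (0.938), ast (0.936) and Charon (0.934), and for fs(1)K10 CG33303 (0.907), alpha-Est10 (0.894) and CG2493 (0.876). None of the 7 maternal mRNAs was among these 21 genes. Among themselves, bcd and hb correlated at 0.839 over the 9 libraries.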

How the data were processed

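RNA of 9 libraries from larp::GFP::FLAG ovaries was, per the labels, enriched for poly(A) RNA and made into directional libraries. The authors deposited for each library whole-number read counts per FlyBase gene identifier, without normalization. The submitters' processing notes name HISAT2 2.1.0, featureCounts 1.4.6 and dm6, and the strand setting and annotation release are not given in the sources used here. Each list held 17024 features. The 1 feature whose identifier names no gene was left out of totals and tests, and it held 0.00650% to 7.89% of the counts. A table of identifiers gave symbols for 16647 features. Positions and exon lengths came from BDGP6.54 with Ensembl release 115.

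Groups and replicate numbers came from the labels. Nothing says that replicates came from separate animals, so p-values measure only the spread between these samples. Chi-square between replicates of the same fraction was at least 31.6 per degree of freedom, so no library was a copy of another in its fraction. Each pair of fractions was fitted alone in edgeR 4.0.16 (R 4.3.3) by the quasi-likelihood F test (robust, TMM, filterByExpr), with Benjamini-Hochberg adjustment over all genes tested. Tests were tried on simulated data. SE and intervals came from the F statistic. The numbers 1 to 3 in the labels paired libraries across fractions. Deviations from the fraction means correlated at 0.159 to 0.435 between same-numbered libraries and at -0.349 to 0.122 between libraries of different number. The main fits did not use the replicate number. A fit with the replicate number as a block, DESeq2 1.42.0, other scalings, no filter on low counts, all 9 libraries together, and each library left out were the alternatives. Keeping the unnamed feature and leaving out both libraries numbered 3 were alternatives chosen after seeing the data.

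The 7 mRNAs, the gene lists and the markers were chosen with earlier results of these data known. The text names the 7 mRNAs, larp, the highest and lowest gene of each pathway list against input, and the 3 genes most like each mRNA among those with a mean of at least 50 counts. cup and BicC, the overlapping genes, the germline markers and Fbp1 were named after their values were seen. Genes not matched by identifier (nos, Imp, vas, fs(1)ph, wupA) were not analysed here.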

Additional observations from a re-analysis of the deposited data

How the results depend on the processing

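None of the 7 maternal mRNAs was called in anti-FLAG IP against IgG control under any alternative but library totals alone. With library totals alone, 2190 genes were called lower against input and 1701 against IgG control. The values against input then changed sign for bcd (-0.011), hb (-0.22), Hsp83 (-0.33), pum (-0.58), tud (-0.39), Egfr (-0.028) and Dsor1 (-0.67), and those against IgG control for grk (-0.78), hb (-0.68) and fs(1)K10 (-0.80). With totals outside ribosomal protein genes, 146 genes were called lower against input and 14 against IgG control, and grk (-0.16), hb (-0.036) and fs(1)K10 (-0.17) changed sign against IgG control. The share of the 7 mRNAs was then 0.215% in anti-FLAG IP, 0.293% in the IgG control and 0.276% in input. For IgG control against input, osk changed sign to 0.00069 with library totals alone and to 0.0098 with DESeq2.

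With the replicate number as a block, 76 genes were called lower against input, 5 were called lower against IgG control, and 6 higher and 2 lower in the IgG control against input. The block changed the call of bcd in the IgG control against input, and of larp and 1 of the 5 germline markers in anti-FLAG IP against input. In the latter comparison it also changed the call of 1 follicle cell, 1 muscle sheath and 1 fat body marker. It changed the call of no other maternal mRNA and of no gene of the pathway lists. DESeq2 called 52 genes lower against input, 2 lower against IgG control, and 22 higher and 9 lower in the IgG control against input. Without the filter 56 genes were called lower against input, 14 lower against IgG control and 1 higher in the IgG control against input. The fit of all 9 libraries called 2 lower against IgG control and 1 higher in the IgG control against input. Without both libraries numbered 3, 231 genes were called higher and 75 lower against input and 9 lower against IgG control. grk was then at -0.17 against IgG control, and larp at -0.0022 in the IgG control against input. The causes of these changes were not tested, beyond the removal of samples or of the filter itself.

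Leaving out 1 library at a time gave 117 to 213 genes higher and 7 to 145 lower against input, with the highest counts without anti-FLAG IP replicate 3. It gave 114 to 164 higher and 0 to 21 lower against IgG control, and 0 to 1 higher and 0 lower for IgG control against input. Signs changed within these ranges against input for gcl (-0.21 to 0.053), fs(1)K10 (-0.22 to 0.012) and Dsor1 (-0.10 to 0.52). Against IgG control they changed for bcd (-0.21 to 0.10), grk (-0.21 to 0.60), gcl (-0.21 to 0.046) and fs(1)K10 (-0.0065 to 0.19). For IgG control against input they changed for osk (-0.18 to 0.14), grk (-0.78 to 0.034), gcl (-0.090 to 0.14) and larp (-0.61 to 0.76). The share of counts ran from 0.115% to 0.143% in anti-FLAG IP, 0.261% to 0.276% in the IgG control and 0.248% to 0.254% in input. With 3 libraries a fraction, the 95% intervals of the 7 mRNAs span 0.66 to 2.44 on the log2 scale, the widest for grk.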
